A study of Homo sapiens and Mus musculus with 4 samples.

Results

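Bulk RNA-seq of Jurkat, a human T-cell leukaemia line, was compared with bulk RNA-seq of EL4, a mouse T-cell lymphoma line, over the protein-coding genes that carry the same unique symbol in both species. Mitochondrially encoded genes were left out. The rule kept 15487 genes, out of 19165 human and 21541 mouse protein-coding genes and out of 60736 genes of both species in the table. Jurkat was grown in RPMI-1640 with fetal bovine serum and antibiotics, and EL4 in RPMI-1640 with L-glutamine, fetal bovine serum and 2-mercaptoethanol. Neither line received a further treatment, both came from ATCC, and the study describes both as CD4+ T cells. The 2 remaining libraries of the series, TALL104 (a human CD8+ T-cell leukaemia line kept in IL-2) and IVA12 (a mouse B-cell hybridoma), were set beside them. Each line had 1 library, so no difference has a replicate check, no test between the lines was possible, and species, line, culture medium and gene annotation cannot be told apart.

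Mature T cells are recognised by the T-cell receptor with its CD3 chains, the kinases that relay its signal, and transcription factors that hold the T-cell programme in place. Leukaemia and lymphoma lines keep much of that programme but are arrested at different stages and carry their own oncogenes. A comparison across species adds the divergence of gene regulation between human and mouse to the differences between the lines.

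The deposited values are FPKM, fragments per kilobase of gene and 1000000 reads. Each library was rescaled to a sum of 1000000 over the shared genes, and the result is called the level below. Ratios given on the log2 scale are those of level + 1, with Jurkat over EL4 and TALL104 over IVA12, while fold values are plain ratios of levels with an exact 95% interval that covers counting error only. The FPKM values could be turned back into whole reads in all 4 libraries, which can be too few where the gene length was recovered too small. The read totals behind them were 34783047 for Jurkat, 32149319 for EL4, 28345951 for TALL104 and 25286728 for IVA12. Reads assigned to the genes of the other species made up between 0.0376% and 0.212% of the reads in the 4 libraries. Reads from genes that overlap on the same strand may have been split or dropped by the counting. This touches the human genes ACTB, CCND2, EEF2, HSPA8, IL9R, LAT, MCL1, PIK3R3, PLCG1 and TSPAN7 and the mouse genes GATA3, HSPA8, LAT, LCK, PFKM, PIK3R3, STAT4 and TKT among those described below, and others are pointed out where they appear.

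Across the 15487 genes, the log2 levels of Jurkat and EL4 had a Pearson correlation of 0.813, which is a description across genes of 2 libraries. Over the 8269 genes with a level of at least 1 in both lines the correlation was 0.669. A further 1782 genes reached a level of 1 in Jurkat alone, 736 in EL4 alone and 4700 in neither. More than 2-fold higher levels were found in Jurkat for 4204 genes (27.1% of the genes compared) and in EL4 for 1991 genes (12.9%). More than 4-fold higher levels were found in Jurkat for 2084 genes (13.5%) and in EL4 for 965 genes (6.23%), while 2823 genes (18.2%) lay within 1.5-fold of each other at a level of at least 1 in both lines. The exact counting interval excluded a ratio of 1 for 6189 of the 6195 genes past 2-fold, at the depths given above. The same reads selected these genes, so this count gives no independent support for the differences.

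The division between the lines depended on the scale. Of the genes past 2-fold, 67.9% were higher in Jurkat. Centring the ratios of genes detected in both lines on their median, a shift of 0.36 on the log2 scale, gave 3501 genes higher in Jurkat and 2604 higher in EL4, or 57.3% higher in Jurkat. With FPKM as deposited the share was 50.3%. Centred medians are therefore given beside each gene group below. Over all shared genes the median log2 ratio was 0.09, and 27.1% and 12.9% lay past 2-fold, the background over all genes for each group. The 4204 and 1991 genes past 2-fold all lay among the 10787 genes detected in either line, where the median was 0.53. That is the closer background for lists with nearly all members detected, such as DNA replication, mitosis and apoptosis.

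**Figure D1:**
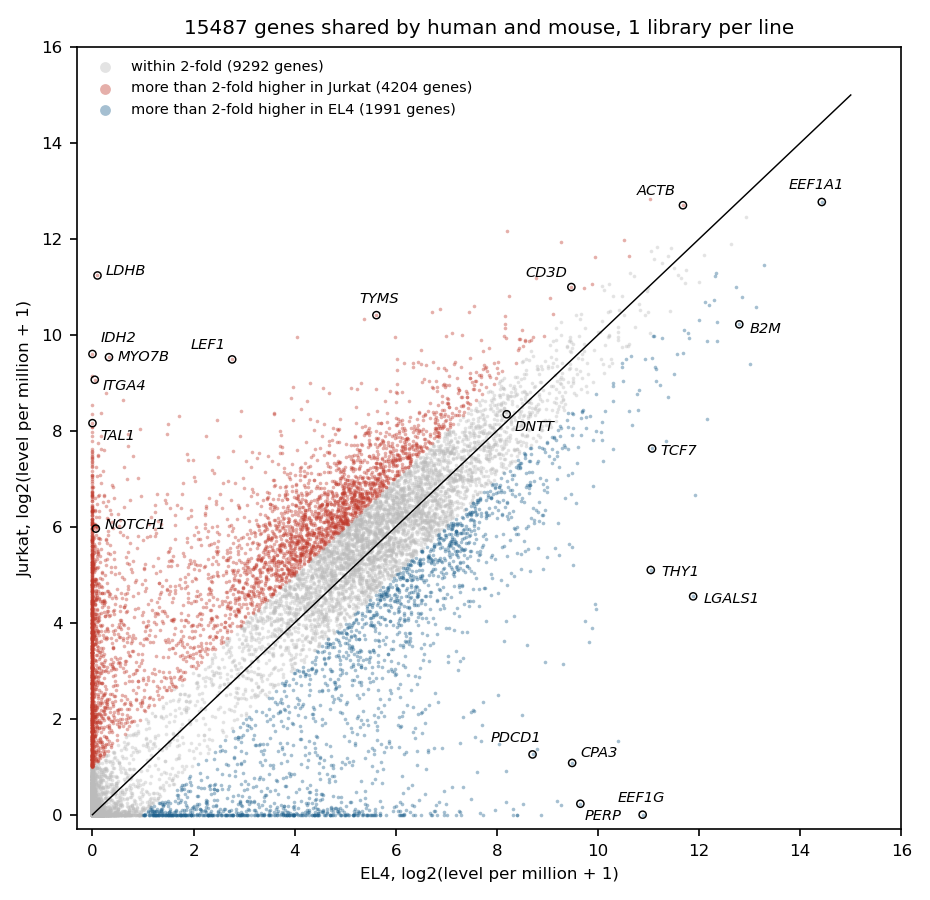
Level of each of the 15487 shared genes in EL4 (x axis) and Jurkat (y axis), both as log2(level per 1000000 + 1), with 1 point per gene and 1 library per line. Red points lie more than 2-fold higher in Jurkat (4204 genes) and blue points more than 2-fold higher in EL4 (1991 genes), with genes such as LDHB, TAL1 and EEF1G lying along an axis because the other line is at or near 0.

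Both lines carried the T-cell receptor module. The CD3 chains pair with the receptor and hold tyrosine-based activation motifs that are phosphorylated when it is engaged. The 90 coding bases of CD3E that hold this motif are shown because the same gene was quantified from diverged sequences in the 2 species. Capitals mark the bases that differ between human and mouse, 2 of 90 in this window, while the whole coding sequences were 72.6% identical.
Human CD3E (GRCh37, chr11:118185168-118186248, plus strand, exons 8 to 9): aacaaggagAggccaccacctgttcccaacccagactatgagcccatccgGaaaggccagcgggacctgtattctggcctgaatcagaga
Mouse Cd3e (GRCm38, chr9:44999540-45000476, minus strand, exons 7 to 8): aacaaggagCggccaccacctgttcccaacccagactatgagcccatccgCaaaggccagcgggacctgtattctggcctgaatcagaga

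CD3D had a level of 2042 in Jurkat, 710 in EL4, 1431 in TALL104 and 0.106 in IVA12. CD3E (ENSG00000198851 and ENSMUSG00000032093) had 849 in Jurkat, 229 in EL4, 1333 in TALL104 and 0.0978 in IVA12, which put Jurkat 3.71-fold above EL4 (3.56 to 3.86). CD3G went the other way in level, with 360 in Jurkat, 634 in EL4, 351 in TALL104 and 4.07 in IVA12. Its recovered length was 3836 bases in human and 1070 in mouse, with 9399 reads in Jurkat and 6056 in EL4. The direction for CD3G between Jurkat and EL4 therefore depends on the division by length. All 3 T-cell lines thus stood far above the B-cell hybridoma for these chains. CD247, the zeta chain, was the least even of the chains, at 198 in Jurkat, 21.5 in EL4, 191 in TALL104 and 0.712 in IVA12. The mouse gene overlaps another gene on its strand, so that its reads may have been split.

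The kinases and adaptors next to the receptor were also present in both lines. LCK, the kinase that phosphorylates the CD3 chains, had a level of 970 in Jurkat and 348 in EL4, and ZAP70, which binds the phosphorylated chains, had 329 and 172. The adaptor LAT was lower in Jurkat than in EL4, at 138 and 383, and LCP2 was close at 85.5 and 118. The phospholipase PLCG1 had 191 in Jurkat, 5.89 in EL4, 333 in TALL104 and 18.1 in IVA12. PRKCQ, the protein kinase C of the T-cell synapse, had 152 in Jurkat and 335 in TALL104 but was listed at 0 in EL4 and IVA12, which puts Jurkat at least 3202-fold above EL4 against a floor of 3 reads per library. Of the 32 shared genes of the receptor signalling list, 10 were more than 2-fold higher in Jurkat and 6 in EL4, with a median log2 ratio of 0.20 that became -0.15 after centring. Between TALL104 and IVA12 the median of the same list was 6.65, with 27 genes more than 2-fold higher in TALL104 (26.8% of all genes compared) and 0 in IVA12 (17.4%).

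The coreceptors did not match the name of CD4+ T cells closely. CD4 had a level of 5.03 in Jurkat, 0.751 in EL4, 0.176 in TALL104 and 0 in IVA12. CD8A had 3.07 in Jurkat, 0 in EL4, 162 in TALL104 and 0 in IVA12. Transcripts of CD4 were thus low in both lines that carry its name, and lowest in EL4 of the pair.

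Surface molecules of T cells divided between the lines. THY1, the Thy-1 antigen of mouse T cells, had a level of 33.3 in Jurkat, 2111 in EL4, 0.102 in TALL104 and 0.81 in IVA12, so that EL4 lay 63.4-fold above Jurkat (60.0 to 67.0). CD44, an adhesion receptor, had 0.131 in Jurkat, 80.8 in EL4, 437 in TALL104 and 343 in IVA12, which made Jurkat the only library of the 4 near 0. CD7 had 105 in Jurkat and 546 in TALL104, with 0 in EL4 and 0.124 in IVA12. CD2 had 439 in Jurkat, 64.2 in EL4, 89.5 in TALL104 and 35.5 in IVA12, and the phosphatase PTPRC (CD45) had 549, 177, 1567 and 7.76 in the same order. CD5, CD28, CD48 and CD52 lay within 2-fold of each other in the pair, at 152 and 271, 293 and 216, 143 and 164, and 82.9 and 85.7. Of 25 shared pan-T surface genes, 12 were more than 2-fold higher in Jurkat and 5 in EL4, with a median of 0.93 and 0.59 after centring.

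Costimulatory and inhibitory receptors were more often higher in EL4. PDCD1, the inhibitory receptor PD-1, had a level of 1.39 in Jurkat, 416 in EL4, 0 in TALL104 and 0.655 in IVA12. BTLA had 0.198 in Jurkat, 67.2 in EL4, 0.437 in TALL104 and 0 in IVA12, and TIGIT had 0, 25.1, 0.365 and 0.146. PDCD1, BTLA and TIGIT were named for their large ratios, and not every inhibitory receptor of the list was high in EL4. For these genes, EL4 was the only one of the 4 libraries with a level above 2. The opposite was seen for CD40LG, the ligand by which T cells help B cells, which had 187 in Jurkat and 608 in TALL104 and was listed at 0 in EL4 and IVA12. In the whole list of 19 shared genes, 5 were more than 2-fold higher in Jurkat and 7 in EL4, with a median of -0.67 and -0.84 after centring.

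Transcription factors of T-cell identity were partly alike. GATA3 had a level of 76.9 in Jurkat, 92.7 in EL4, 82.7 in TALL104 and 0.0706 in IVA12, and BCL11B, which holds T-cell commitment, had 103, 48.1, 70.1 and 0.0693. Both were present in the 3 T-cell lines and near 0 in the hybridoma, with GATA3 within 1.5-fold in the pair and BCL11B 2.14-fold higher in Jurkat (2.05 to 2.24). The related factors TCF7 and LEF1, which act downstream of WNT signals, were high in opposite lines. TCF7 had 197 in Jurkat, 2150 in EL4, 134 in TALL104 and 4.07 in IVA12, so that EL4 was 10.9-fold higher (10.7 to 11.1). LEF1 had 718 in Jurkat, 5.79 in EL4, 105 in TALL104 and 0 in IVA12, so that Jurkat was 124-fold higher (113 to 136). SATB1, a chromatin organiser of thymocytes, had 126 in Jurkat and was listed at 0 in EL4, although the gene overlaps another in both species. EOMES, BACH2 and SATB1 were high in both human lines and at 0 or near 0 in EL4. Of 32 shared genes of this list, 15 were more than 2-fold higher in Jurkat and 7 in EL4, with a median of 0.84 and 0.48 after centring, and of 0.24 with reads not divided by length.

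The genes of immature thymocytes and of NOTCH signalling had the highest median of the 32 lists when all members were counted. NOTCH1 is a receptor that drives T-cell fate and is often mutated in T-cell leukaemia, and DTX1 is one of its targets. NOTCH1 had a level of 61.4 in Jurkat, 0.0473 in EL4, 70.4 in TALL104 and 46.1 in IVA12, which made EL4 the only library near 0. DTX1 had 134 in Jurkat, 0 in EL4, 0 in TALL104 and 5.28 in IVA12. The recombinase genes RAG1 and RAG2, which cut receptor gene segments, had 6.95 and 16.5 in Jurkat and 0 in EL4, and both RAG1 genes overlap another gene. DNTT, the terminal transferase of immature lymphocytes, was 1 of 6 genes of the list within 2-fold. It had 324 in Jurkat and 292 in EL4 against 0.297 in TALL104 and 0.33 in IVA12. Of 22 shared genes, 16 were more than 2-fold higher in Jurkat and 0 in EL4, with a median of 2.90 and 2.62 after centring, and the median between TALL104 and IVA12 was 0.19. The median between Jurkat and EL4 was 1.21 with FPKM as deposited. Over the members detected in both lines it was 0.66, below the 1.35 of the DNA repair list under the same filter.

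TAL1, a basic helix-loop-helix factor of blood stem cells and an oncogene of T-cell leukaemia (GRCh37, chr1:47681962-47697897), had a level of 285 in Jurkat, 1.77 in TALL104 and 0 in both mouse libraries. Jurkat thus stood at least 3712-fold above EL4 against the floor of 3 reads. LMO2, a partner of TAL1, was in contrast at 0.0472 in Jurkat and 1.40 in EL4 against 112 in TALL104. HOXA10 had 0.237 in Jurkat and 37.9 in EL4, although the human gene overlaps another gene. MYC had 494 in Jurkat, 187 in EL4, 117 in TALL104 and 692 in IVA12, so that it was present throughout. Of 26 shared oncogenic transcription factors, 7 (26.9%) were more than 2-fold higher in Jurkat and 3 (11.5%) in EL4, near the 27.1% and 12.9% of all shared genes, with a median of 0.49 and 0.40 after centring. After centring, 6 genes were more than 2-fold higher in each line.

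**Figure D2:**
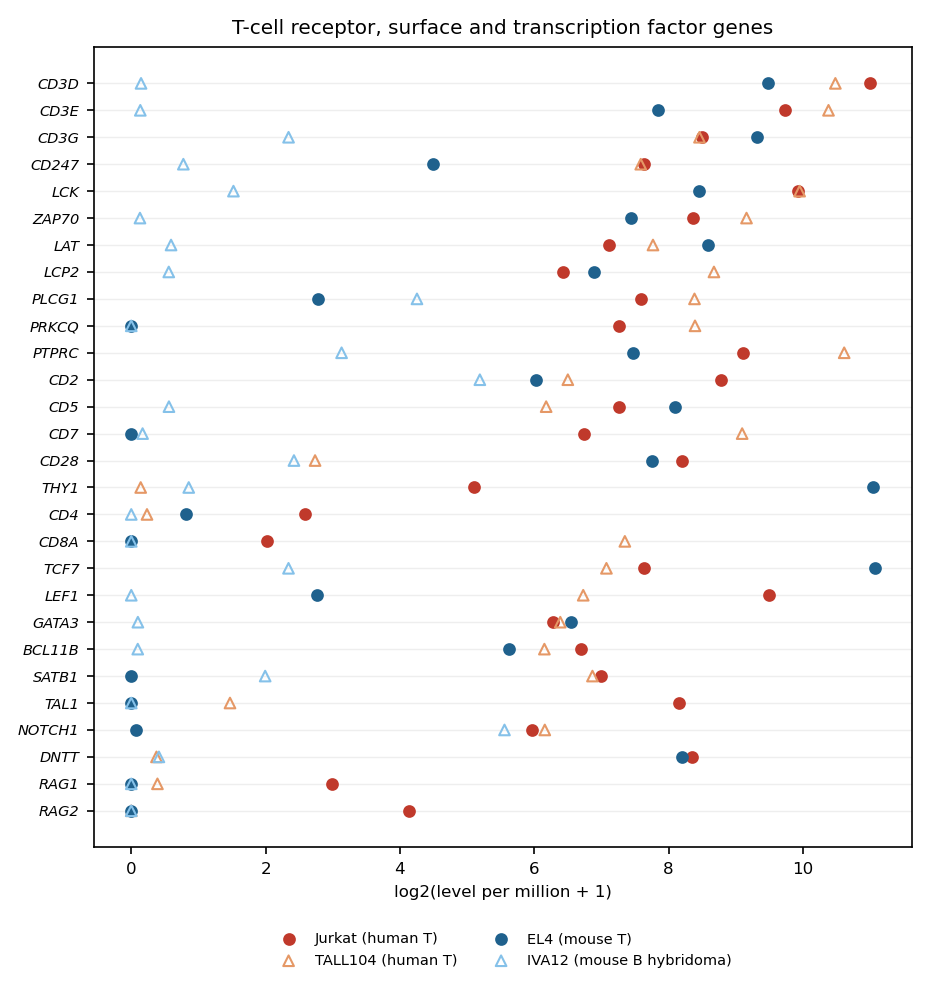
Levels of 28 T-cell receptor, surface and transcription factor genes (rows) in the 4 libraries, as log2(level per 1000000 + 1) on the x axis, with filled circles for Jurkat and EL4, open triangles for TALL104 and IVA12, and red shades for human. The CD3 chains, LCK, ZAP70, GATA3 and BCL11B stand apart from IVA12 in all 3 T-cell lines, whereas THY1 and TCF7 are highest in EL4 and LEF1, TAL1 and NOTCH1 are far higher in Jurkat than EL4.

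The largest ratios came from genes that were abundant in 1 line and at or near 0 in the other. On the Jurkat side, the largest included LDHB, IDH2, MYO7B, SH2D1A, ITGA4, GSTO1, VAT1, TSPAN7, TAL1, BEX3, GRK3, AIF1, CHST11 and FADS2. IDH2, a mitochondrial isocitrate dehydrogenase, had a level of 776 in Jurkat, 0 in EL4, 184 in TALL104 and 211 in IVA12. GSTO1, a glutathione transferase, had 372, 0, 178 and 187 in the same order, and FADS2, a fatty acid desaturase whose human gene overlaps another, had 238, 0, 39.7 and 108. For these 3 enzymes EL4 alone was at 0. A second kind was high in Jurkat alone. MYO7B, an unconventional myosin, had 741 in Jurkat and at most 0.298 in the other libraries, and TSPAN7, a tetraspanin, had 327 in Jurkat and at most 1.24. A further kind was high in both human libraries and at or near 0 in both mouse libraries. SH2D1A, the adaptor of SLAM receptors (its human gene overlaps another), had 565 in Jurkat, 0 in EL4, 882 in TALL104 and 0.0255 in IVA12.

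On the EL4 side, the largest included EEF1G, PERP, CMTM7, ESM1, WIF1, CPA3, MTAP, PRICKLE1, UCHL1, S1PR5, CASP1, SLC6A13, ACADL and S100A6. CPA3, a protease known from mast cells, had a level of 1.11 in Jurkat, 717 in EL4, 0 in TALL104 and 0.185 in IVA12. WIF1, an inhibitor of WNT ligands, had 467 in EL4 and 0 in the 3 other libraries, and UCHL1, a ubiquitin hydrolase, had 317 in EL4 and at most 0.266 elsewhere. S1PR5, a sphingosine phosphate receptor, had 366 in EL4 and at most 0.169 elsewhere. These genes were abundant in EL4 alone. CASP1, the inflammatory caspase, was instead near 0 in Jurkat alone, at 0.0788 against 317 in EL4, 81.9 in TALL104 and 37.6 in IVA12. EEF1G, a subunit of elongation factor 1, had 1888 in EL4 and 1515 in IVA12 and 0 in both human libraries. The human genes of EEF1G, MTAP and ESM1 overlap other annotated genes on the same strand, so their human values are uncertain.

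**Figure D3:**
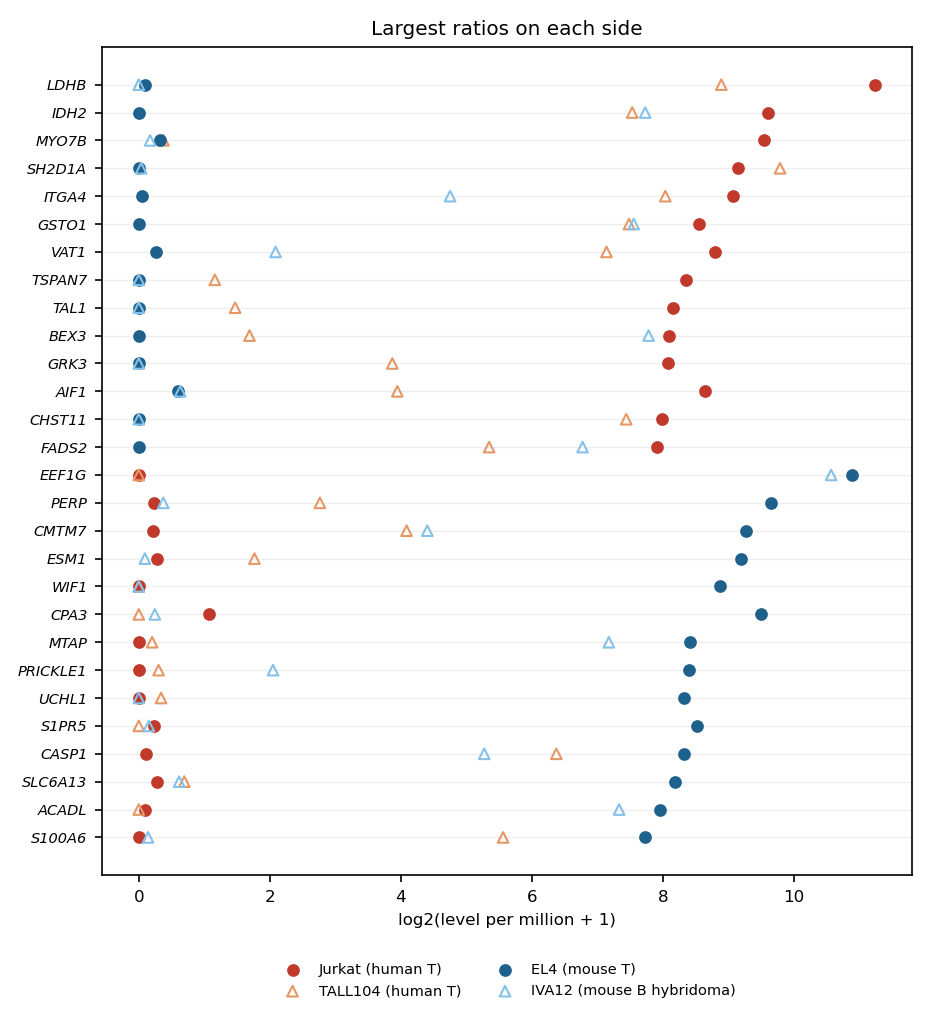
Levels of 14 of the genes with the largest Jurkat to EL4 ratio (top rows) and 14 of those with the largest EL4 to Jurkat ratio (bottom rows) in the 4 libraries, as log2(level per 1000000 + 1) on the x axis, with filled circles for Jurkat and EL4 and open triangles for TALL104 and IVA12. LDHB, SH2D1A and CHST11 are high in both human libraries, EEF1G, MTAP and ACADL in both mouse libraries, and TAL1, MYO7B, WIF1 and CPA3 in 1 line alone.

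Energy metabolism differed most in single enzymes. LDHB, the subunit of lactate dehydrogenase that favours lactate use, had a level of 2415 in Jurkat, 0.0714 in EL4, 473 in TALL104 and 0 in IVA12. The value in EL4 came from 1 read against 49099 in Jurkat. Human LDHB overlaps another annotated gene. Its coding sequences were 86.3% identical between the species, and the first 90 coding bases that align without a gap are shown because LDHB carried the largest ratio. Capitals mark the 13 bases that differ.
Human LDHB (GRCh37, chr12:21807483-21807572, minus strand, exon 2): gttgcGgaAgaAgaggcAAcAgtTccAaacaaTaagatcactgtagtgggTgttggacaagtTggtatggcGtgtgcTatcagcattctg
Mouse Ldhb (GRCm38, chr6:142505418-142505507, minus strand, exon 2): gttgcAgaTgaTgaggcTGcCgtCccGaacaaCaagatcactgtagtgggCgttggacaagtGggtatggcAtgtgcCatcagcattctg

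SLC2A3, the glucose transporter GLUT3, was high in the opposite line, with a level of 15.3 in Jurkat, 860 in EL4, 313 in TALL104 and 12 in IVA12. PFKM, the muscle phosphofructokinase, had 3.59 in Jurkat, 94.1 in EL4, 3.49 in TALL104 and 108 in IVA12, so that both mouse libraries lay above both human ones. ENO2, an enolase, had 143 in Jurkat and 0 in EL4. TPI1, PGAM1 and TKT, in contrast, were alike in the pair, at 773 and 818, 432 and 457, and 272 and 355. Of 28 shared glycolysis genes, 6 were more than 2-fold higher in Jurkat and 10 in EL4, with a median of -0.57 and -0.93 after centring. The summed level of the list was 18236 in Jurkat and 15884 in EL4, of which LDHB alone gave 2415 and 0.0714.

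Genes of the respiratory chain and of the cytosolic ribosome were lower in Jurkat as groups. Of 59 nuclear-encoded respiratory chain genes, 5 were more than 2-fold higher in Jurkat and 28 in EL4, with a median of -0.92 and -1.28 after centring. Of 84 ribosomal protein genes, 5 were more than 2-fold higher in Jurkat and 41 in EL4, with a median of -0.98 and -1.34 after centring. Ribosomal proteins made up 8.65% of the rescaled total in Jurkat, 18.3% in EL4, 7.62% in TALL104 and 18.2% in IVA12, so that the libraries of each species were close to each other. The gene length used moved with this result. The length recovered from the human FPKM was 1.94 times that from the mouse FPKM at the median ribosomal protein gene. It was 1.67 times at the median respiratory chain gene, against 1.11 times over all shared genes. With reads not divided by length in place of FPKM, the medians were -0.36 for ribosomal proteins and -0.71 for the respiratory chain.

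Overlapping genes also moved with these groups. Very uneven members on the EL4 side, among them NDUFA13, NDUFA7, NDUFA9 and NDUFC2 of complex I and RPS10 and RPL36A of the ribosome, overlap another annotated human gene on the same strand. RPS10 had a level of 992 in EL4, 895 in IVA12, 18.6 in Jurkat and 11 in TALL104. Over the 44 ribosomal protein genes without such an overlap in either species the median was -0.96, and over 38 respiratory chain genes it was -0.78. In the proteasome, PSMA2 (11.1 in Jurkat and 906 in EL4) and PSMA6 (48.6 and 690) overlap human neighbours, while PSMC6 (68.8 and 457) overlaps none in either species. Of the 38 proteasome genes, 3 were more than 2-fold higher in Jurkat and 9 in EL4, with a median of 0.09 and -0.18 after centring. Of the 29 without an overlap, 6 were more than 2-fold higher in EL4.

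Lipid synthesis leaned to Jurkat. FDPS and FDFT1 make farnesyl diphosphate and squalene on the way to cholesterol. FDPS had a level of 478 in Jurkat, 14.6 in EL4, 148 in TALL104 and 12.8 in IVA12, although the mouse gene overlaps another. FDFT1 had 512 in Jurkat, 38.7 in EL4, 160 in TALL104 and 35.8 in IVA12. Both enzymes were thus higher in the human libraries, with Jurkat at the top. FASN, the fatty acid synthase, and SREBF2, which sets the transcription of cholesterol genes, were alike in the pair, at 140 and 139 and at 163 and 202. Of 34 shared genes, 17 were more than 2-fold higher in Jurkat and 2 in EL4, with a median of 0.98 and 0.63 after centring, and of 0.32 with FPKM as deposited.

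Nucleotide and amino acid synthesis held large single differences but no common direction. TYMS, thymidylate synthase, had a level of 1361 in Jurkat, 48.1 in EL4, 79.8 in TALL104 and 60.5 in IVA12, which put Jurkat 28.3-fold above EL4 (27.2 to 29.5). TK1, the thymidine kinase of the salvage route, had 64.7 in Jurkat, 0.0216 in EL4, 11.5 in TALL104 and 50.4 in IVA12, with 1 read in EL4. The ribonucleotide reductase genes RRM1 and RRM2 were alike in the pair, at 501 and 617 and at 593 and 626. ASNS, asparagine synthetase, had 20 in Jurkat, 986 in EL4, 67.0 in TALL104 and 648 in IVA12, and its human gene overlaps another. The nucleotide list of 29 genes had 7 more than 2-fold higher in Jurkat and 5 in EL4 with a median of -0.00, and the serine, asparagine and ATF4 list of 26 genes had 6 and 6 with a median of 0.25. After centring the medians were -0.31 and -0.11.

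Chaperones were nearly equal in sum. Their summed level was 27558 in Jurkat and 27466 in EL4, and 7 of 32 genes were more than 2-fold higher in Jurkat and 5 in EL4, with a median of -0.14 and -0.50 after centring. HSP90AB1 had a level of 5629 in Jurkat and 7765 in EL4, and the mitochondrial chaperonin HSPD1 had 2428 and 3057. DNAJA1, a cochaperone of HSP70, stood out with 1492 in Jurkat, 117 in EL4, 484 in TALL104 and 97.8 in IVA12, although the mouse gene overlaps another. Its recovered length was 2730 bases in human and 8629 in mouse, with 27761 reads in Jurkat and 8972 in EL4. The size of the DNAJA1 ratio therefore depends on the division by length.

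The proliferation programmes were active in both lines. Of 41 DNA replication genes, 12 were more than 2-fold higher in Jurkat and 4 in EL4, with a median of 0.34 and -0.02 after centring. Of 41 mitosis and spindle genes, 13 were more than 2-fold higher in Jurkat and 0 in EL4, with a median of 0.61 and 0.25 after centring. PCNA, the sliding clamp, had a level of 1138 in Jurkat and 852 in EL4, and CDC20, which activates the anaphase-promoting complex, had 487 and 538. Both were lower in TALL104, at 542 and 15.6. The mitosis list had a median of -3.0 between TALL104 and IVA12, with 37 of 41 genes more than 2-fold higher in IVA12. With reads not divided by length the median of the mitosis list between Jurkat and EL4 was -0.07, so its direction depends on the division by gene length.

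Several inhibitors of the cell cycle were at or near 0 in single libraries or in both human libraries. CDKN2A and CDKN2B, inhibitors of the cyclin D kinases, and MTAP, an enzyme of methionine salvage, are neighbours on human chromosome 9 (GRCh37, MTAP at chr9:21802635-21937650, CDKN2A at chr9:21967751-21995300 and CDKN2B at chr9:22002902-22009304). All 3 were at 0 in Jurkat and at most 0.249 in TALL104. In EL4 they had levels of 338 for MTAP, 0.669 for CDKN2A and 45.5 for CDKN2B, and in IVA12 143, 411 and 12.8. CDKN1A, the inhibitor p21, had 1.82 in Jurkat, 57.1 in EL4, 79.2 in TALL104 and 55.4 in IVA12, so that Jurkat was the lowest of the 4. CCND2, cyclin D2, had 3.44 in Jurkat, 186 in EL4, 201 in TALL104 and 879 in IVA12, while CDK4 was alike in the pair at 309 and 311. Of 31 shared genes of G1 control, 11 were more than 2-fold higher in Jurkat and 6 in EL4, with a median of 0.18 and -0.17 after centring.

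DNA repair genes leaned to Jurkat, with mismatch repair genes among the exceptions. XRCC6 and PRKDC encode Ku70 and the catalytic subunit of DNA-PK, which join broken ends. XRCC6 had a level of 1421 in Jurkat, 104 in EL4, 517 in TALL104 and 87.6 in IVA12, and PRKDC had 352, 16.5, 187 and 14.1. Both were higher in the human libraries. MLH3, a mismatch repair protein, had 0.316 in Jurkat, 26.1 in EL4, 25.6 in TALL104 and 15.5 in IVA12, so that Jurkat was the lowest library. MSH6, named after its values were seen, had 63.7 in Jurkat and 168 in EL4. Of 25 shared genes, 14 were more than 2-fold higher in Jurkat and 3 in EL4, with a median of 1.35 and 1.0 after centring, and between TALL104 and IVA12 the median was -0.03. With reads not divided by length the median between Jurkat and EL4 was 0.46.

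INPP5D (SHIP1), a phosphatase that removes phosphoinositide signals, is known to be missing as a protein in Jurkat. Its transcript was present in both lines, with a level of 25.5 in Jurkat, 64.4 in EL4, 385 in TALL104 and 40.1 in IVA12. EL4 was 2.52-fold above Jurkat (exact 95% counting interval 2.37 to 2.69). Of the 26 genes of the PI3K pathway list, 7 were more than 2-fold higher in Jurkat and 7 in EL4, with a median of -0.25 and -0.59 after centring. AKT2 and PDPK1 were alike, at 54.2 and 36.3 and at 41.4 and 52.9, while PIK3R3, a regulatory subunit, had 111 in Jurkat and 6.98 in EL4.

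Of 33 apoptosis genes, 13 (39.4%) were more than 2-fold higher in Jurkat and 6 (18.2%) in EL4, with a median of 0.54 and 0.22 after centring. These values were near those of the 10787 genes detected in either line. Of those, 4204 were more than 2-fold higher in Jurkat and 1991 in EL4, with a median of 0.53. BCL2L1, the survival factor BCL-X, had a level of 124 in Jurkat, 5.43 in EL4, 217 in TALL104 and 38.3 in IVA12. The BH3-only genes BIK and PMAIP1 were also higher in Jurkat, at 47.6 and 86.8 against 0 and 1.36 in EL4. MCL1 and BAK1 lay within 1.5-fold, at 224 and 214 and at 99.8 and 149. Of 28 genes of Polycomb and DNA methylation, 10 were more than 2-fold higher in Jurkat and 3 in EL4, with a median of 0.64 and 0.31 after centring, but -0.10 with reads not divided by length. JARID2, a Polycomb cofactor, had 175 in Jurkat, 4.57 in EL4, 102 in TALL104 and 34.7 in IVA12, and RNF2, the catalytic RING subunit, was at 66.7 in both lines.

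**Figure D4:**
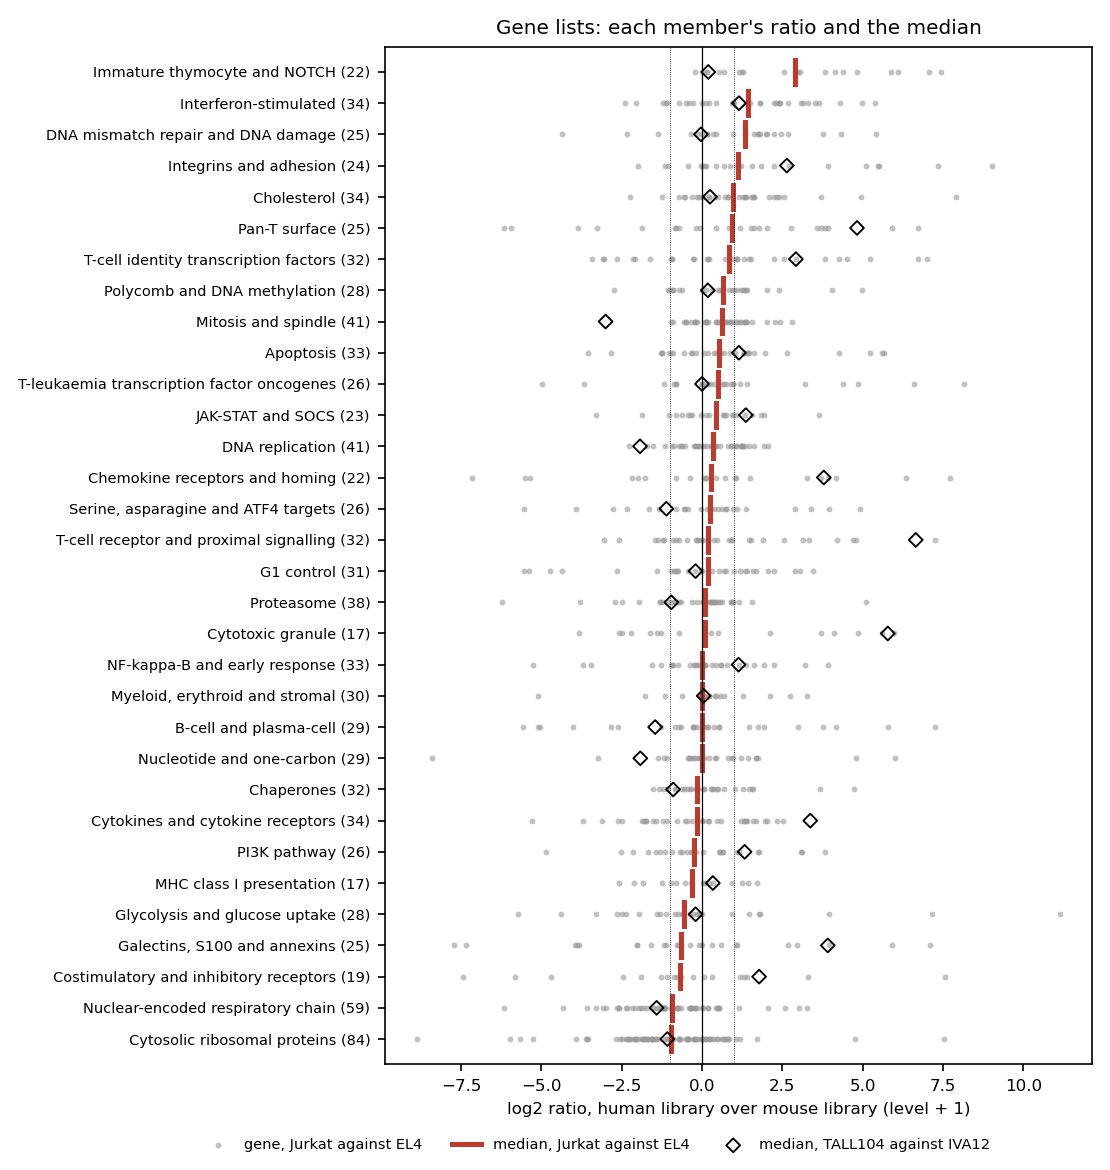
Log2 ratio of level + 1 for each member of the 32 gene lists (grey points, number of shared genes in brackets), with the median between Jurkat and EL4 as a red bar and the median between TALL104 and IVA12 as an open diamond, and dotted lines at 2-fold. Immature thymocyte and NOTCH genes have the highest Jurkat median (2.90) and ribosomal proteins the lowest (-0.98), while the receptor signalling list sits near 0 between Jurkat and EL4 and at 6.65 between TALL104 and IVA12.

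Of 34 interferon-stimulated genes, 19 were more than 2-fold higher in Jurkat and 5 in EL4, with a median of 1.42 and 1.21 after centring, and of 0.65 with FPKM as deposited. The median between TALL104 and IVA12 was 1.15. ISG15, a ubiquitin-like modifier induced by interferon, had a level of 238 in Jurkat, 6.52 in EL4, 317 in TALL104 and 167 in IVA12. ADAR, the RNA-editing enzyme, had 468, 36.5, 378 and 66.2, and OAS2, a sensor of double-stranded RNA, had 43.8, 0.0756, 130 and 2.30. EL4 had the lowest level of the 4 libraries for all 3 genes. STAT2 and EIF2AK2 were alike in the pair, at 39.5 and 28.7 and at 47.3 and 43.0.

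Antigen presentation genes went both ways. B2M, the light chain of class I molecules, had a level of 1192 in Jurkat, 7105 in EL4, 7738 in TALL104 and 1772 in IVA12, so that EL4 was 5.96-fold above Jurkat (5.88 to 6.05). The recovered length of B2M was 3151 bases in human and 860 in mouse, with 25589 reads in Jurkat and 54513 in EL4. The size of this ratio therefore depends on the division by length. NLRC5, the activator of class I genes, had 17.9 in Jurkat, 66.0 in EL4, 99.5 in TALL104 and 12 in IVA12. Both genes were higher in EL4 and TALL104 than in Jurkat and IVA12. In the list of 17 shared genes, 3 were more than 2-fold higher in Jurkat and 4 in EL4, with a median of -0.31 and -0.67 after centring. Over the 11 without an overlap the median was 0.02, with 3 genes more than 2-fold higher in each line. The classical class I heavy chains carry different symbols in the species and were not compared.

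Cytokine receptors were divided. IL7R, the receptor for interleukin 7, had a level of 16.6 in Jurkat, 151 in EL4, 8.50 in TALL104 and 0.0438 in IVA12, and IL18R1 had 0.102, 41.7, 346 and 0.0583, with an overlapping human gene. IL9R was closer in the pair at 94.9 and 68.5. Of 34 shared cytokine and receptor genes, 11 were more than 2-fold higher in Jurkat and 13 in EL4, with a median of -0.16 and -0.43 after centring. Of 23 JAK-STAT and SOCS genes, 6 were more than 2-fold higher in Jurkat and 3 in EL4, with a median of 0.45 and 0.10 after centring. STAT4 and CISH were highest in TALL104, at 382 and 202, against 12.5 and 3.44 in Jurkat and 0.0868 and 0.157 in EL4. TALL104 was the library kept in IL-2, and the part of IL-2 in these levels was not tested.

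Trafficking receptors showed opposite preferences. CCR9, a receptor for gut and thymus homing, had a level of 0.261 in Jurkat, 179 in EL4, 0.072 in TALL104 and 0 in IVA12, although the mouse gene overlaps another. S1PR1, the receptor for egress from lymph nodes, had 79.8 in Jurkat, 0 in EL4, 0 in TALL104 and 29.1 in IVA12, while S1PR5 was the receptor found in EL4. Jurkat and EL4 thus each held a sphingosine phosphate receptor that was at or near 0 in the other. SELPLG, the ligand of P-selectin, had 236 in Jurkat and 0.131 in EL4. Of 22 shared genes, 9 were more than 2-fold higher in Jurkat and 6 in EL4, with a median of 0.28 before and after centring, and of -1.29 over those detected in both lines.

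Integrins differed by subunit. ITGA4 and ITGB1 form the receptor VLA-4. ITGA4 had a level of 535 in Jurkat, 0.0321 in EL4, 261 in TALL104 and 25.9 in IVA12, and ITGB1 had 176, 0.0824, 331 and 121, so that both subunits were near 0 in EL4 alone. ITGAL, the alpha chain of LFA-1, was alike in the pair at 162 and 167. Of 24 shared adhesion genes, 13 were more than 2-fold higher in Jurkat and 3 in EL4, with a median of 1.11 and 0.81 after centring, and of 0.43 with FPKM as deposited. Over the genes of this list whose lengths in the 2 species lay within 1.5-fold, the median was 0.00.

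Galectins, S100 proteins and annexins held large differences in both directions. LGALS1, galectin-1, had a level of 22.4 in Jurkat, 3774 in EL4, 1314 in TALL104 and 6.15 in IVA12, which put EL4 168-fold above Jurkat (145 to 197). Its coding sequences were 86.0% identical, and the first 90 coding bases that align without a gap are shown because LGALS1 was the most abundant gene of this list in EL4. Capitals mark the 8 bases that differ.
Human LGALS1 (GRCh37, chr22:38073062-38074568, plus strand, exons 2 to 3): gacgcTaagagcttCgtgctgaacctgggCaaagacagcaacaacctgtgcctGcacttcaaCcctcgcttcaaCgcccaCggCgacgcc
Mouse Lgals1 (GRCm38, chr15:78928039-78929711, plus strand, exons 2 to 3): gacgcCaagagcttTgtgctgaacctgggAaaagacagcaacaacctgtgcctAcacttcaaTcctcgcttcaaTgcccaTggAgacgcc

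S100A6 shared this pattern, with a level of 0 in Jurkat, 211 in EL4, 46.2 in TALL104 and 0.103 in IVA12. Its relative S100A10 was the reverse in the pair, with 59.2 in Jurkat and 0 in EL4, and the actin-capping protein CAPG had 261 and 0.931. ANXA1, ANXA6 and ANXA11 were alike, at 190 and 155, 351 and 453, and 59.6 and 63.9. Of 25 shared genes, 7 were more than 2-fold higher in Jurkat and 10 in EL4, with a median of -0.65 and -1.0 after centring, and of 0.00 over the genes with lengths within 1.5-fold.

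Genes of effector function and of other lineages were mostly low. Of 17 shared cytotoxic granule genes, 6 were more than 2-fold higher in Jurkat and 7 in EL4, with a median of 0.08 and -0.27 after centring, and of -1.40 over those detected in both lines. GZMA, a granule protease, had a level of 103 in Jurkat and 97.5 in EL4 against 5162 in TALL104, and PRF1, perforin, had 17.1, 0.0546 and 1170. Both lines of the pair lay far below the cytotoxic line. Of 33 genes of NF-kappa-B and early response, 7 were more than 2-fold higher in Jurkat and 5 in EL4, with a median of 0.01 and -0.30 after centring.

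Markers of other lineages checked the labels. The 29 shared B-cell and plasma-cell genes summed to a level of 554 in Jurkat and 619 in EL4, against 783 in TALL104 and 11426 in IVA12, with 8 more than 2-fold higher in Jurkat and 7 in EL4 and a median of 0.00 before and after centring. MS4A1, which encodes CD20, was near 0 in Jurkat and EL4 and at 165 in IVA12. CD79A, a chain of the B-cell receptor, had 84.4 in Jurkat, 0.539 in EL4, 141 in TALL104 and 0.193 in IVA12, so that it was found in the human T-cell lines and not in the B-cell hybridoma. The 30 myeloid, erythroid and stromal genes summed to 29.7 in Jurkat and 98.8 in EL4, with 4 and 3 past 2-fold and a median of 0.01 and 0.00 after centring. FCER1G made up most of the sum in EL4, at 84.9.

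The genes most abundant in both lines served translation, folding and the cytoskeleton. Leaving out ribosomal proteins, the 10 genes with the highest smaller level were EEF1A1, ACTB, HSP90AB1, PTMA, HSPA8, YBX1, HNRNPA1, EEF2, HSPD1 and NPM1. HNRNPA1, a splicing factor, was closest in level, with 2703 in Jurkat and 2901 in EL4. Its recovered length was 5093 bases in human and 1918 in mouse, with 93840 reads in Jurkat and 49634 in EL4. The nearness of HNRNPA1 therefore depends on the division by length. EEF1A1 was the most uneven of the 10 in level, with 6982 in Jurkat, 22027 in EL4, 9010 in TALL104 and 34008 in IVA12, and the mouse gene overlaps another. Similarity varied with abundance. Among the 1854 genes whose higher level lay between 1 and 10, 12.03% were within 1.5-fold, against 29.9% of the 5950 genes between 10 and 100 and 28.6% of the 2830 genes between 100 and 1000. At 1000 and above, 24.8% of the 153 genes were within 1.5-fold, while 38.6% were more than 2-fold higher in EL4 and 19.6% in Jurkat.

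TALL104 and IVA12 share no library with the pair but do share its species contrast, together with a contrast of T cell with B cell. Of the 2084 genes more than 4-fold higher in Jurkat, 1195 (57.3%) were more than 2-fold higher in TALL104 than in IVA12, where 26.8% of all genes were, and 206 (9.88%) went the other way. Of the 965 genes more than 4-fold higher in EL4, 461 (47.8%) were more than 2-fold higher in IVA12, where 17.4% of all genes were, and 171 (17.7%) went the other way. The 26.8% and 17.4% include the 4700 genes detected in neither Jurkat nor EL4, whose quartiles of this log2 ratio were -0.04 and 0.09. They are therefore not the shares among detected genes, which were not computed. Read from the other side, 28.8% of the genes more than 2-fold higher in TALL104 were more than 4-fold higher in Jurkat, against 13.5% of all genes. Of those more than 2-fold higher in IVA12, 17.1% were more than 4-fold higher in EL4, against 6.23% of all genes. The median log2 ratio of TALL104 over IVA12 was 1.45 in the Jurkat class, -0.73 in the EL4 class and 0.07 for the 2823 genes within 1.5-fold.

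**Figure D5:**
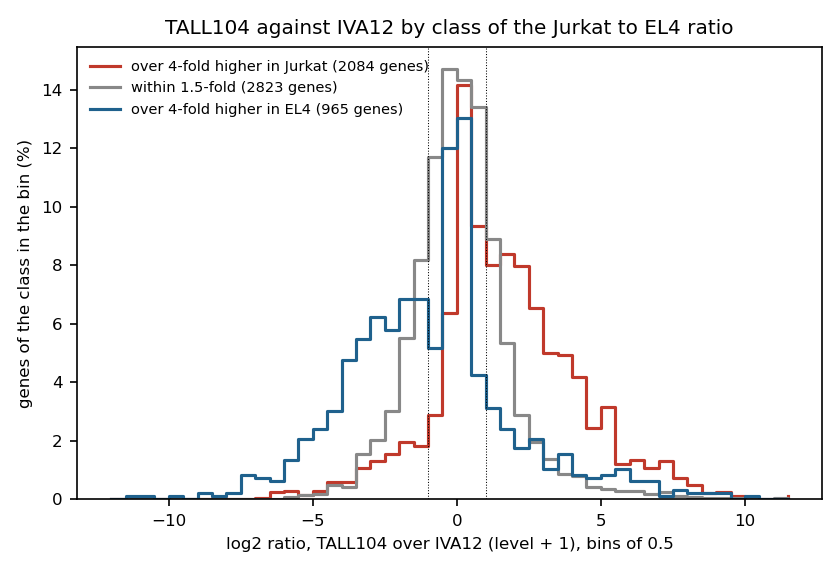
Share of genes (y axis, in % of each class) in bins of 0.5 of the log2 ratio of TALL104 over IVA12 (x axis), for genes more than 4-fold higher in Jurkat (red, 2084 genes), within 1.5-fold (grey, 2823 genes) and more than 4-fold higher in EL4 (blue, 965 genes), with dotted lines at 2-fold. The red curve lies to the right with a median of 1.45 and the blue curve to the left with a median of -0.73, and both overlap the grey curve.

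A few genes were high in both libraries of 1 species and near 0 in both of the other. Species cannot be told apart here from line, medium or annotation. IVA12 is a B-cell hybridoma, so for T-cell genes such as CD7 and CD40LG only EL4 stands for mouse T cells. With cut-offs chosen after the values were seen, 33 genes had a level of at least 50 in both human libraries and under 1 in both mouse libraries, and 6 genes the reverse. The first set included LDHB, SH2D1A, CHST11, CD40LG, PRKCQ, CD7, CD79A, NKG7, CD63 and ENO2 among the genes described by rule, and the second EEF1G, MTAP and ACADL. ACADL, the long-chain acyl-CoA dehydrogenase, had a level of 248 in EL4 and 160 in IVA12 against 0.067 in Jurkat and 0 in TALL104. CHST11, a chondroitin sulfotransferase, had 252 in Jurkat and 173 in TALL104 against 0 in both mouse libraries. The human gene overlapped another in 5 of the 33 and in 3 of the 6, against 15.9% of all shared genes.

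The classes differed little in how alike the coding sequences of the species were. The median identity of human and mouse coding sequences was 85.2% for the genes more than 4-fold higher in Jurkat, 85.1% for those higher in EL4, 87.1% for those within 1.5-fold and 83.0% for those detected in neither line, against 85.3% for all. A same-strand overlap of the human gene was found for 22.2% of the genes more than 4-fold higher in EL4 and for 15.4% of those higher in Jurkat. By human chromosome, the share of genes detected in either line that were more than 2-fold higher in Jurkat ran from 29.4% on chromosome 5 to 49.4% on chromosome 3. Of all 10787 genes detected in either line, 4204 were more than 2-fold higher in Jurkat and 1991 in EL4. The lowest share of genes more than 2-fold higher in EL4 was found on chromosome 20, at 9.97%.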

How the data were processed

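Total RNA of 4 cell lines was sequenced as stranded mRNA libraries, 1 library per line. The authors aligned reads with STAR 2.5.1b to a combined hg19 and mm10 reference distributed with Cell Ranger 1.2.0, counted genes with featureCounts 1.6.3 and deposited FPKM. Gene lengths and the handling of reads matching several genes are not given in the sources used here. Gene symbols came from GENCODE releases 44 (lifted to GRCh37) and M21 (GRCm38), matched by gene ID. A shared symbol is not proof of orthology. Levels, log2 ratios (pseudocount 1) and exact 95% counting intervals were computed in Python 3.11.15 with SciPy 1.17.1. Whole reads were recovered from FPKM by finding the library total and the smallest gene length that make each value a whole number of reads (100% of values above 0, relative tolerance 1e-12). The annotated exon length was taken where it was a whole multiple of that length. Elsewhere the length, and with it the reads, can be too small. Human CPA3 was recovered at 132 bases against 1815 annotated, and mouse Gsto1 at 82 against 2023. Same-strand exon overlaps came from bedtools 2.31.1 on the GENCODE exons, not on the annotation used for counting, and coding identity from edlib alignment. The procedure was tested on simulated reads with the annotated lengths known.

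The members and the 32 gene lists were chosen with earlier results of these data known. Genes named are the 15 largest ratios on each side (level of at least 50), the 10 highest in both lines apart from ribosomal proteins, the 4 largest and 3 most alike of each list, and a fixed set of T-cell and leukaemia genes. A few genes that the rule names are not reported here.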

Additional observations from a re-analysis of the deposited data

Results flagged for a closer look

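Values above 0 were found in data that the comparison did not use. On the rows of the other species for the same shared genes, Jurkat had 0.0532% of its FPKM and EL4 0.0339%. No control library sets a background for them, so they were compared only with a count of 0, which any stray read exceeds, and no rate of misassigned reads was measured. Only 4 of these genes reached 1 FPKM in Jurkat and 1 in EL4. The source of these reads was not tested.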

How the results depend on the processing

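No paired analysis was possible because each line had 1 library. The 2-fold counts in Jurkat and EL4 were 2480 and 1315 over genes detected in both lines, 2136 and 1241 over genes with lengths within 1.5-fold (4744 detected in both lines), and 2084 and 965 at a 4-fold threshold. With FPKM as deposited the Jurkat count was 2387. The correlation was 0.796 with a pseudocount of 0.1, 0.769 with 0.01, 0.816 with FPKM as deposited, 0.814 after centring, 0.629 over genes detected in either line, 0.669 in both, 0.810 without ribosomal proteins, 0.812 without the 10 highest genes of each line, 0.822 with reads not divided by length, 0.820 with like lengths and 0.795 as Spearman rho. The share of Jurkat genes also higher in TALL104 was 59.8% and 59.6% with the smaller pseudocounts, 50.8% with deposited FPKM, 53.5% after centring, 68.0% over genes detected in both and 53.6% with like lengths. The share of EL4 genes also higher in IVA12 was 51.8%, 52.5%, 54.9%, 52.0% and 56.6% in the first 5 of these settings. Alternatives chosen after seeing the data gave correlations of 0.813 (coding identity of at least 70%) and 0.817 (no overlap), and shares of 54.5% and 43.2% without overlap.

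All 173 named genes past 2-fold kept their direction in each of the 13 alternatives that held them. The smaller pseudocounts and the detection filters cannot reverse a ratio. The other alternatives, apart from reads not divided by length, multiply a whole library by a common factor. Many of the genes were named for large ratios in these data, so the kept directions are no independent check. Past 2-fold, 164 stayed with deposited FPKM and 157 with reads not divided by length. Of 13 lists with a median past 1.5-fold, 6 stayed past it with deposited FPKM and 4 with reads not divided by length. Medians changed side or reached 0 for mitosis (-0.075) and Polycomb genes (-0.099) with reads not divided by length, and for integrins and galectins (0.00) with like lengths. The causes were not tested. Depth limits only genes of a few reads.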
